A study of Mus musculus with 2 samples.

Results

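The CTCF peaks described here lie in gene deserts of the mouse genome. They were chosen by position alone: a peak of the authors' optimal reproducible list (mm10, chromosomes 1 to 19) was a member when its summit lay outside every protein-coding gene body and more than 200 kb from the transcription start site (TSS) of every protein-coding transcript. The rule found 3150 peaks among 63856 on these chromosomes, a share of 4.93% (95% Wilson interval 4.77% to 5.10%), in 845 stretches of sequence that meet the same rule and are called desert intervals below. CTCF-bound DNA was collected by chromatin immunoprecipitation and sequencing from whole kidney of B6NCrl mice at postnatal age 0 days, in 2 libraries (replicates 1 and 2) that form 1 group. The labels name no mutation or treatment, and both libraries carry the same biosample and donor identifiers, so the spread between them may be technical. The values describe a mixture of kidney cell types, in which fewer bound cells and less binding per cell cannot be told apart. CTCF peaks do not measure expression, so the tissue could not be checked against marker genes; the CTCF label was checked through the motif.

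CTCF is a zinc-finger protein that binds a long, directional DNA motif and stops the loop-extruding cohesin complex, so that chromosome loops often form between a pair of CTCF sites whose motifs point at each other. Gene deserts are long stretches without protein-coding genes. They tend to be AT-rich and late-replicating, and many that border developmental regulators carry distant enhancers, while others, often beside neuronal adhesion genes, hold few known elements. CTCF sites inside such stretches are known to partition them into domains and to restrict which gene an enhancer reaches.

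The sequences below show the motif at the strongest and at the most remote desert peaks. Each is 41 bases of GRCm38.p6 (mm10 coordinates), written 5′ to 3′ along the motif, with the best 19-bp match to the CTCF motif in capitals. The motif was learned from peaks outside deserts and has the consensus TGGCCACCAGGGGGCGCTA. The first 7 belong to desert peaks among those with the highest signal that both libraries ranked in their upper sets, and the last 3 to desert peaks more than 2 Mb from any protein-coding TSS.
Npvf–Nfe2l3, chr6:50937250-50937290, reverse strand: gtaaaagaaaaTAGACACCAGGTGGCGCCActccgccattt
Caln1–Galnt17, chr5:130853517-130853557, reverse strand: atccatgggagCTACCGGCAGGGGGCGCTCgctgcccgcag
A1bg–Myc, chr15:61157686-61157726, forward strand: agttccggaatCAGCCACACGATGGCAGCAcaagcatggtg
Sox9–Slc39a11, chr11:113165287-113165327, reverse strand: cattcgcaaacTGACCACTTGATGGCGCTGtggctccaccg
Fbxl7–Ank, chr15:27234928-27234968, reverse strand: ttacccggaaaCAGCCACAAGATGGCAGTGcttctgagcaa
Slc7a11–Noct, chr3:50906140-50906180, reverse strand: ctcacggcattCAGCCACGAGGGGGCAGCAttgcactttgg
Sall1–Tox3, chr8:90001079-90001119, forward strand: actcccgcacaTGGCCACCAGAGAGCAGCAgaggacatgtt
Pcdh20–Pcdh9, chr14:91014884-91014924, forward strand: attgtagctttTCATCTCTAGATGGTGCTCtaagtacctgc
Pcdh20–Pcdh9, chr14:90680556-90680596, forward strand: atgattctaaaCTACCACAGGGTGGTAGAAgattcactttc
Cntnap5b–Cdh20, chr1:102378773-102378813, reverse strand: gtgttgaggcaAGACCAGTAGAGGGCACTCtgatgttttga

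Motif scores (log-odds against background, in bits) of the first 7 ran between 14.8 and 21.1, and the matches shared 10 to 15 of their 19 bases with the consensus. The Npvf–Nfe2l3 match had the highest of these scores. The 2 matches in the Pcdh20–Pcdh9 desert scored 9.76 and 10.3, close to the threshold of 9.46, whereas the Cntnap5b–Cdh20 match scored 20.1. A high score thus also occurred at a remote and weak peak: the signal of the Cntnap5b–Cdh20 peak lay at the 29.4th percentile of the list.

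CTCF peaks were sparse in deserts. Deserts made up 508.9 of 2395.9 Mb of ungapped autosomal sequence, or 21.2%, and held 4.93% of the peaks. The density was 6.19 summits per Mb in deserts and 32.2 per Mb outside. Each library was also taken alone, as its 65482 highest-signal peaks on all chromosomes, a number equal to the whole optimal list and called its upper set here. Replicate 1 had 6.36 summits per Mb in deserts and 32.1 outside, and replicate 2 had 5.56 in deserts and 32.3 outside. The gap between deserts and other sequence was thus many times the difference between the libraries. With soft-masked bases and summits left out, the density was 8.46 per Mb in deserts and 36.6 per Mb outside. Desert density ranged between 4.38 per Mb on chromosome 17 and 9.38 per Mb on chromosome 9, and on each of the 19 chromosomes it was below the density of the rest of that chromosome.

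**Figure D1:**
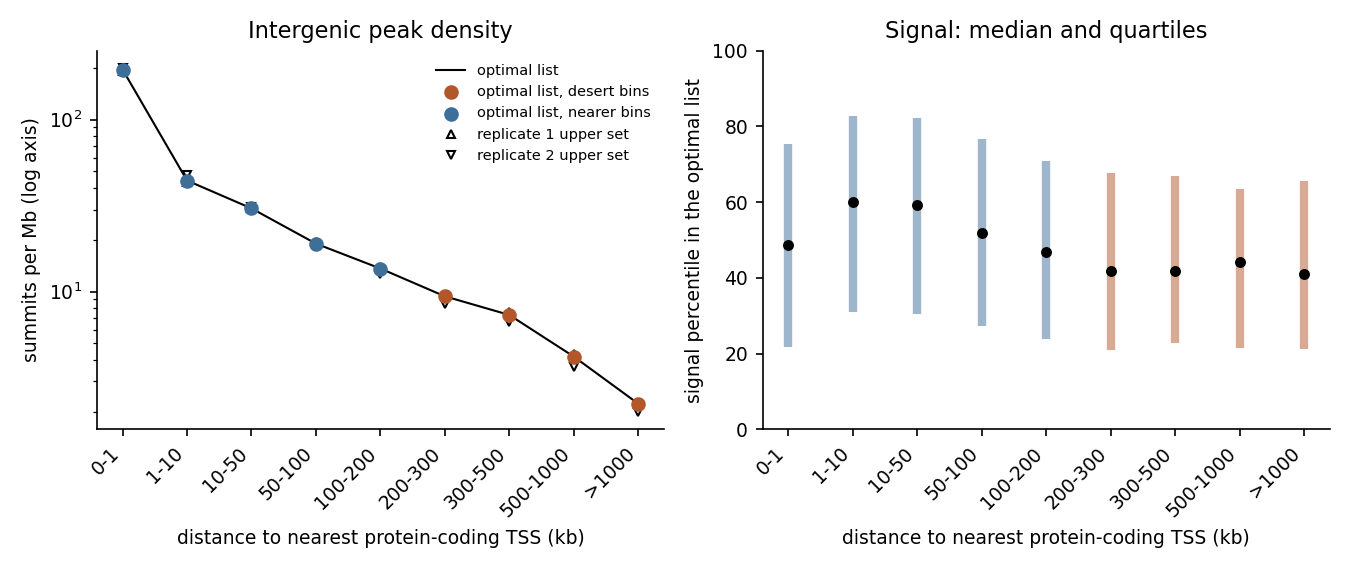
Left, density of intergenic CTCF summits (per Mb, log axis) by distance to the nearest protein-coding TSS, for the optimal list (points; desert bins in orange) and the upper set of each library (triangles). Right, median (point) and quartiles (bar) of the peaks' signal percentile in the optimal list. Density fell at each step to 2.23 per Mb beyond 1000 kb, while the 4 desert medians lay between 40.9 and 44.1.

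Within intergenic sequence the density fell step by step with distance from a TSS. It was 195.6 summits per Mb in the first kilobase, 30.5 at 10 to 50 kb and 13.6 at 100 to 200 kb. Inside deserts it was 9.39 per Mb at 200 to 300 kb, 7.31 at 300 to 500 kb, 4.19 at 500 to 1000 kb and 2.23 beyond 1000 kb. In the last bin replicate 1 had 2.23 and replicate 2 had 1.99 summits per Mb. The GC content of the intergenic sequence fell alongside, to 36.8% beyond 1000 kb, against 40.2% at 200 to 300 kb and 42.9% at 10 to 50 kb (densities by class of GC content follow). Desert members lay between 200.2 and 2543.5 kb from a TSS, with a median of 341.5 kb; 801 were more than 500 kb away, 158 more than 1 Mb and 9 more than 2 Mb.

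The rule measures distance from start sites, so a desert summit may still be near the 3′ end of a long gene: 451 of the 3150 members lay within 200 kb of a gene body and 8 within 10 kb. The gap of 0.0247 Mb between the ends of Caln1, which encodes a neuronal calcium-binding protein, and Galnt17, a glycosyltransferase gene, is such a case and held 5 members. More than 1 Mb separated the flanking genes for 1723 members. At the 200-kb limit itself, the 5 members just inside lay at 200.2 to 200.7 kb and had signal percentiles between 1.62 and 60.0, and the 5 intergenic peaks just outside lay at 199.8 to 199.9 kb and had percentiles between 10.9 and 90.1.

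Densities were compared between 100-kb tiles of the same GC class. Within a class the GC content may still differ between kinds of tile. In tiles of 42 to 44% GC, deserts had 15.6 summits per Mb, other intergenic tiles 28.04 and tiles whose centre fell in a gene 34.3. In tiles of 36 to 38% GC, the largest desert class, the densities were 2.91 in deserts, 5.40 in other intergenic tiles and 7.73 in gene bodies. The order was the same in each of the 6 GC classes. Density also rose with GC within deserts: among the 155 desert intervals of at least 1 Mb, GC content and density had a Spearman correlation of 0.60, given as a description since neighbouring sequence, libraries and list are shared. Desert intervals under 37% but at least 36% GC had 2.45 summits per Mb (2.57 in replicate 1 and 2.31 in replicate 2), and those of at least 42% GC had 18.5 (18.9 and 16.1).

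**Figure D2:**
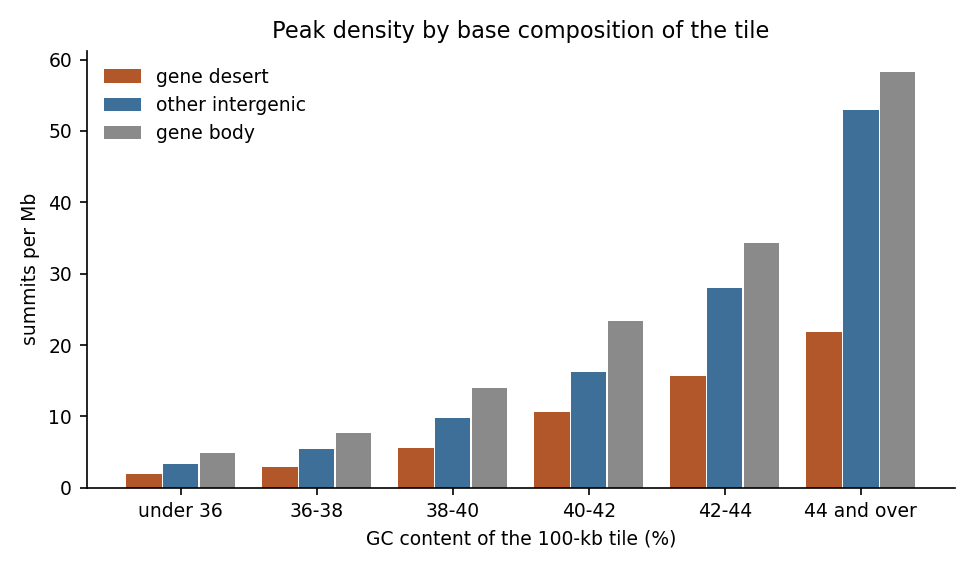
CTCF summits per Mb of the optimal list in 100-kb tiles, by GC content of the tile, for tiles centred in gene deserts (orange), in other intergenic sequence (blue) and in gene bodies (grey). Bars start at 0. In every GC class desert tiles had the lowest density, from 1.96 per Mb under 36% GC to 21.9 per Mb at 44% GC and over.

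Desert peaks were weaker than other intergenic peaks. Signal is the authors' value per peak and was used as a rank within a list. The median desert peak stood at the 42.3rd percentile of the optimal list. The median was 46.7 for peaks in gene bodies and 46.9 for intergenic peaks at 100 to 200 kb. It was 55.2 for the 16586 intergenic peaks 10 to 200 kb from a TSS and 50.4 for all peaks outside deserts. The libraries gave the same order: among each library's own peaks matched to the optimal list, the median rank (1 is highest) was 37567 for desert peaks and 32220.5 outside in replicate 1, and 38555.5 for desert peaks and 31941.5 outside in replicate 2. Of the highest 1% of all peaks, 6 were desert peaks, which is 0.190% of members, against 1.02% of all 63856 peaks. Beyond 200 kb the median percentile no longer fell with distance, at 41.9, 41.9, 44.1 and 40.9 in the 4 desert bins, although density did.

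Reproducibility between the libraries was slightly lower in deserts. A total of 2326 members (73.8%, 72.3% to 75.3%) overlapped the upper set of both libraries, against 78.5% of all peaks. Replicate 1's upper set held 91.4% of desert peaks and 90.8% of the others, and that of replicate 2 held 77.7% of desert peaks and 83.6% of the others. The shortfall was thus in replicate 2. Where replicate 2's own upper set was taken as the list, 89.0% of its desert peaks and 86.4% of its others overlapped the upper set of replicate 1. A further 552 members were in the upper set of replicate 1 alone, 122 in that of replicate 2 alone and 150 in neither. These counts split the members only. Of all peaks, the upper set of replicate 1 held 90.8%, that of replicate 2 held 83.3% and both held 78.5%. The conservative list held 2568 members (81.5%), against 83.7% of all peaks. Within 10 equal classes of signal the difference was uneven. In the lowest class 3.10% of desert peaks and 8.42% of other peaks were in both upper sets, in the next 27.3% of desert peaks and 27.8% of others, then 58.4% of desert peaks and 65.9% of others, then 88.8% of desert peaks and 88.0% of others. In the next class the shares were 95.3% of desert peaks and 97.4% of others, and in the upper 5 classes both were above 99%.

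The CTCF motif was found at most desert peaks. A match within 100 bp of the summit was present at 2465 members (78.3%, 76.8% to 79.7%), against 75.5% of all peaks and 81.4% of intergenic peaks at 10 to 200 kb. Windows 2 kb to either side of desert summits had a match in 1.89% of cases, and those beside peaks outside deserts in 4.24%. At equal signal the share was higher in deserts than outside in each of 10 equal classes of the list, for example 53.3% against 44.2% in the lowest and 99.2% against 97.3% in the highest. At a stricter score, which 1 in 100000 control positions passes, the order turned: 18.3% of desert peaks and 20.9% of other peaks had a match. The match lay a median of 6 bp from the summit. Its direction was balanced, with 1249 matches on the forward and 1216 on the reverse strand.

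Desert matches differed in base content. A CpG was missing from 73.5% of the desert matches and from 62.1% of those outside, and 3.61% of desert matches against 8.71% outside held at least 2 CpGs. Methylation of CpGs in the motif is known to weaken CTCF binding; methylation was not measured here. The consensus base was less frequent in deserts at position 12 of the motif (counted from 1 at its 5′ end), in 58.7% of desert matches and 66.8% of the others, and at position 15, in 73.8% of desert matches and 80.1% of the others. It was more frequent in deserts at position 18, in 47.9% of desert matches and 37.9% of the others. These 3 positions differed most from all matches outside deserts. At intergenic peaks 10 to 200 kb from a TSS, positions 12, 15 and 18 had the consensus base in 63.2%, 80.1% and 40.8%. Against those matches, positions 2 and 3 differed more than position 12, at 38.3% and 42.7% in deserts and 43.4% and 47.7% there. Positions 5, 10 and 13 matched the consensus in 99.1%, 99.8% and 98.3% of desert matches and in 99.2%, 99.7% and 98.6% of the others, and the mean number of consensus bases was 12.01 in desert matches and 12.2 in the others. The sequence within 100 bp of the summit had a median GC content of 45.3% in deserts and 49.3% outside, and 23.0% of desert summits had no CpG in that window, against 12.8% outside.

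Desert summits lay in repeats less often than desert bases did. Soft-masked (repeat-marked) sequence made up 39.6% of desert bases and 31.8% of other bases, but 550 desert summits (17.5%, 16.2% to 18.8%) lay in it, against 22.1% of all summits. Desert peaks in soft-masked sequence had a motif match in 89.8% of cases and a median signal percentile of 32.0. Those in unmasked sequence had a match in 75.8% and a percentile of 45.7. The contrast was not particular to deserts. Outside them a match was present at 90.4% of soft-masked and 70.996% of unmasked peaks, with median percentiles of 36.02 and 56.1.

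The sequence of deserts offered fewer motif matches, and those present were bound less often. Scanning the autosomes found 38638 matches in deserts, or 75.9 per Mb, against 156.5 per Mb outside. A peak summit lay within 100 bp of 6.57% of the desert matches and of 16.2% of those outside. The difference was present in each library: 6.73% of the desert matches were bound in the upper set of replicate 1 and 5.69% in that of replicate 2, against 16.3% and 15.3% outside.

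**Figure D3:**
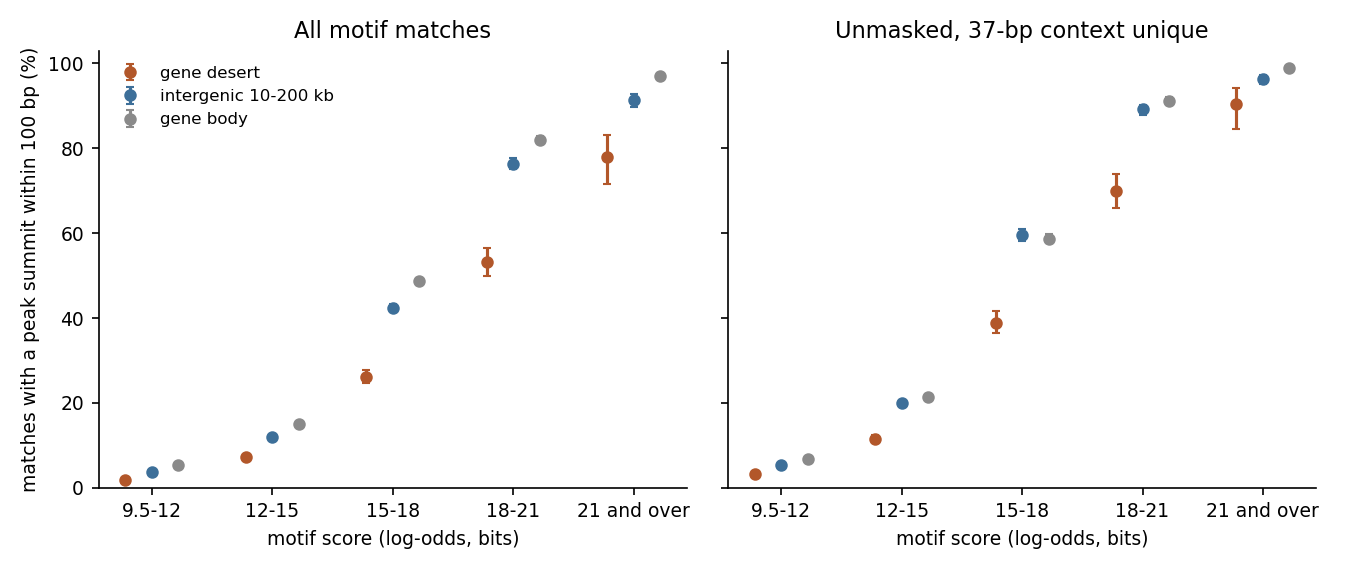
Share of genomic CTCF motif matches with an optimal-list summit within 100 bp (vertical axis, %), by motif score (bits), in gene deserts, intergenic sequence 10 to 200 kb from a TSS and gene bodies; bars are 95% Wilson intervals of counting error. Left, all matches; right, matches in unmasked sequence whose 37-bp context occurred once among all matches. Desert values were the lowest in each score class, and the gap narrowed at scores of 21 and over.

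The difference held at equal motif score. Of matches scoring 18 to 21, 53.2% (49.9% to 56.6%) were bound in deserts, 76.4% (75.1% to 77.7%) in intergenic sequence at 10 to 200 kb and 82.0% in gene bodies. At these scores the gap was smaller in unrepeated sequence. Restricted to unmasked matches whose 37-bp context occurred once among all matches, the shares were 70.1% (65.9% to 73.9%), 89.2% (87.9% to 90.3%) and 91.2%. At scores of 15 to 18, the gap to intergenic sequence at 10 to 200 kb was wider under this restriction. There 26.2% of all desert matches and 42.4% of those at 10 to 200 kb were bound, and 38.9% and 59.7% of the restricted ones. At scores of 21 and over, the same restricted shares were 90.5% (84.6% to 94.2%) in deserts, 96.5% (95.2% to 97.4%) at 10 to 200 kb and 98.975% in gene bodies. In the restricted set at 18 to 21, 70.5% of desert matches were bound in replicate 1 and 63.1% in replicate 2, against 91.8% and 88.3% outside deserts.

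Some of the desert matches without an optimal peak had a weaker one. In the pooled relaxed list, of which the optimal list is the reproducible part, 84.5% of the restricted desert matches at scores of 18 to 21 had a summit within 100 bp, against 96.2% outside. The gap was also present within classes of local GC content. Among unmasked matches scoring at least 15 in 1-kb windows of 40 to 45% GC, 46.2% (42.7% to 49.7%) were bound in deserts, 68.0% at 10 to 200 kb and 70.6% in gene bodies, and the median scores of these matches were 17.0, 17.4 and 17.1. Deserts had the lowest share in each of the 5 GC classes. The ability of reads to map uniquely was not measured beyond the context count above.

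Desert peaks lay farther apart than other peaks, as a lower density entails. Whether their spacing departed from what the density entails was not tested. The median gap between neighbours in the same desert was 47.7 kb, against 12.9 kb among the other peaks, and the nearest other peak was at a median of 28.2 kb, against 5.81 kb outside. For 648 members (20.6%) no other peak lay within 100 kb, against 1.36% of peaks outside deserts. Pairs under 500 bp apart were rarer: 56 members (1.78%) had such a neighbour, against 4.95% outside.

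Neighbouring motifs in deserts pointed the same way more often than elsewhere. Among 1453 neighbouring motif pairs 10 to 500 kb apart within a desert, 57.5% (54.9% to 60.0%) were tandem (same strand), 21.1% convergent (pointing at each other) and 21.5% divergent. Outside deserts, 29125 pairs were 51.6% (51.1% to 52.2%) tandem, 25.6% convergent and 22.8% divergent. The tandem share was 58.7% in deserts and 51.9% outside in replicate 1, and 58.1% in deserts and 51.4% outside in replicate 2. It was 58.9% for desert peaks in the upper set of both libraries, 58.3% for unmasked summits and 56.9% without the antigen receptor loci described below.

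The difference in the tandem share was in widely spaced pairs. At gaps of 10 to 50 kb, 50.4% of 528 desert pairs and 52.4% of outside pairs were tandem, with overlapping intervals. Divergent pairs at these gaps were more frequent in deserts, at 29.0% against 24.7% outside. At 100 to 200 kb, 63.4% (58.0% to 68.5%) of 320 desert pairs and 51.3% (49.5% to 53.2%) of outside pairs were tandem, and at 200 to 500 kb 59.4% (53.3% to 65.3%) of 254 desert pairs and 47.7% (44.5% to 51.0%) of outside pairs. Convergent pairs made up 20.3% of desert pairs and 32.0% of outside pairs at 100 to 200 kb. Convergent desert pairs had a median gap of 76.4 kb and divergent ones of 52.5 kb.

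**Figure D4:**
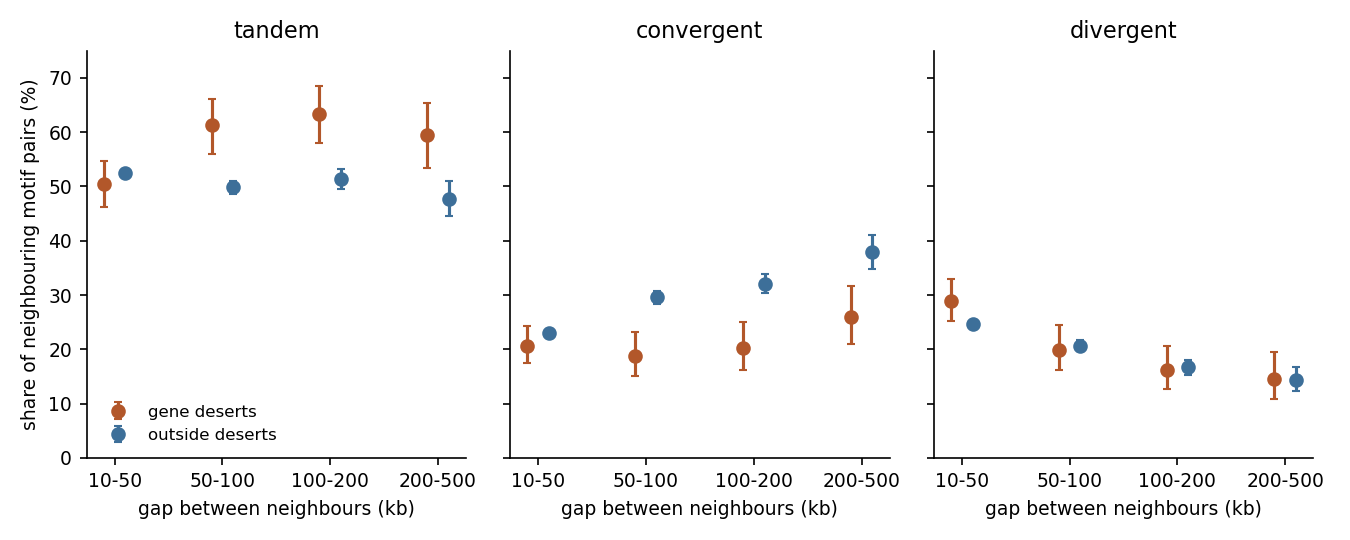
Share (%) of neighbouring CTCF motif pairs that are tandem, convergent or divergent, by gap between the 2 summits (kb), within gene deserts (orange) and outside them (blue); bars are 95% Wilson intervals of counting error. From 50 kb upwards tandem pairs were more frequent and convergent pairs less frequent in deserts, and divergent shares at those gaps were close.

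The outermost motifs of a desert had no common direction: 452 of 907 (49.8%, 46.6% to 53.1%) pointed into the desert, which was 222 of 453 at the left and 230 of 454 at the right edge. Over the whole interval a shallow trend was present. With each interval cut into 5 equal parts, forward matches made up 54.9% (50.8% to 58.9%) of the matches in the leftmost part, then 54.7%, 52.0% and 49.2%, and 43.1% (39.01% to 47.2%) in the rightmost. Motifs nearer to an edge thus pointed inwards slightly more often than outwards, and the single outermost ones did not. These counts cover different sets. The outermost motifs came only from intervals with more than a single matched peak and lay a median of 74.4 kb from the edge. The 5 parts held the matches of all intervals.

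Individual deserts varied widely. Of the 845 desert intervals, 631 held a peak, and the 214 without one had a median length of 0.0887 Mb. Among the 155 intervals of at least 1 Mb the density ranged from 0 to 20.5 per Mb with a median of 3.40, and the counts of the 2 libraries had a Spearman correlation of 0.93 over these intervals. The densest of them, between Tmem132b and Tmem132c, which encode related transmembrane proteins, held 25 peaks (26 in replicate 1 and 20 in replicate 2) in 1.22 Mb of 42.9% GC. Next came the Olfr1507–Dad1 interval with 26 peaks and the Dhx35–Gm826 interval with 19, at 19.1 and 17.9 per Mb.

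Among intervals of any length, high counts were 29 peaks between Rps24 and Zmiz1, 26 between Olfr1507 and Dad1, 25 between Tmem132b and Tmem132c and 24 between Mki67 and Mgmt. The Rps24–Zmiz1 interval reached 53.4 peaks per Mb at 47.2% GC. The 5 longest intervals were much sparser. Pcdh20–Pcdh9 had 12 peaks in 4.34 Mb, Tenm3–Aga 22 in 4.27 Mb, Celf4–Pik3c3 14 in 4.12 Mb, Cntnap5b–Cdh20 9 in 4.08 Mb and Olfm4–Pcdh17 9 in 4.04 Mb, that is 2.20 to 5.15 per Mb.

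The 3 intervals of at least 1 Mb without a peak in the optimal list lay between Pot1a and Grm8 (1.27 Mb), Pom121l12 and Vstm2a (1.26 Mb) and 5730507C01Rik and Gm21863 (1.04 Mb). They had no peak in either library's upper set. The first pair were at 36.98% and 37.1% GC, and the last at 45.1%.

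Antigen receptor loci entered by the rule, because their gene segments are not annotated as protein-coding genes. In total, 69 members (2.19%) lay within 200 kb of such a segment, against 0.262% of peaks outside deserts. They included the 26 peaks of Olfr1507–Dad1 around the T cell receptor alpha and delta segments, and 13 between Adam6a and Zfp386 at the immunoglobulin heavy chain segments. Motif matches were present at 24 of the peaks in Olfr1507–Dad1 and at 11 of those between Adam6a and Zfp386. The density in Olfr1507–Dad1, 19.1 per Mb, was above that of deserts as a whole (6.19 per Mb), and that between Adam6a and Zfp386, 6.18 per Mb, was close to it.

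Deserts beside developmental regulators held CTCF peaks at a higher density than those beside neuronal adhesion genes. Of 20780 protein-coding genes, 1461 (7.03%) flanked a desert. In a list of 79 developmental regulators 50 did (63.3%, 52.3% to 73.1%), and their 68 deserts held 386 peaks at 9.50 per Mb (9.99 in replicate 1 and 9.33 in replicate 2). Of 76 listed neuronal adhesion and guidance genes, 74 were annotated on these chromosomes and 62 of them flanked a desert (83.8%), and their 92 deserts held 495 peaks at 3.94 per Mb (3.99 and 3.62). The average of deserts was 6.19 per Mb. GC content moved with these densities, at 39.9% for the regulators' deserts, 37.4% for those of the adhesion genes and 38.7% overall. Of 1468 chemosensory receptor genes, which lie in dense clusters, 8 (0.545%) flanked a desert, and 4 of the 6 deserts concerned had no peak; those 6 held 28 peaks, 26 of them in Olfr1507–Dad1.

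Among the regulators, Sox9 had the most peaks in its deserts. Sox9 encodes a transcription factor of cartilage, testis and kidney, and its distant regulatory elements lie in the desert on its Kcnj2 side. That interval held 11 peaks in 1.32 Mb (12 in replicate 1 and 13 in replicate 2), of which all 11 were in both upper sets and 10 had a motif match; their median percentile was 82.2. The desert on the other side, towards the zinc transporter gene Slc39a11, held 10 peaks in 0.263 Mb, or 38.1 per Mb, with a median percentile of 36.8. Dach1, a developmental transcription cofactor, had 19 peaks in its 2 deserts, and 13 of them lay towards Klhl1.

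Sall1, a zinc-finger gene required for kidney formation, had 19 peaks in 1 desert of 0.904 Mb (17 in replicate 1 and 20 in replicate 2), 13 of which were in both upper sets and 15 of which had a motif match. Zeb2, a repressor of epithelial genes, had 18 in 3.30 Mb. Myc, a growth regulator whose surrounding deserts are known to carry enhancers active in many tissues, had 17 peaks in its 2 deserts, with a motif match at 8 of them.

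The adhesion genes with the most peaks had larger deserts. Cdh8 and Cdh11, which encode cadherins, had 24 peaks each in 5.76 and 3.74 Mb and share the desert that lies between them. Flrt2, a guidance receptor gene, had 23 peaks in 5.56 Mb, Adgrl2, a latrophilin gene, 23 in 3.53 Mb and Tenm3, a teneurin gene, 22 in 4.27 Mb. Their densities, 4.13 to 6.52 per Mb, lay below the 8.16 to 21.02 per Mb of Myc, Dach1, Sox9 and Sall1, while Zeb2 at 5.46 per Mb fell within them.

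**Figure D5:**
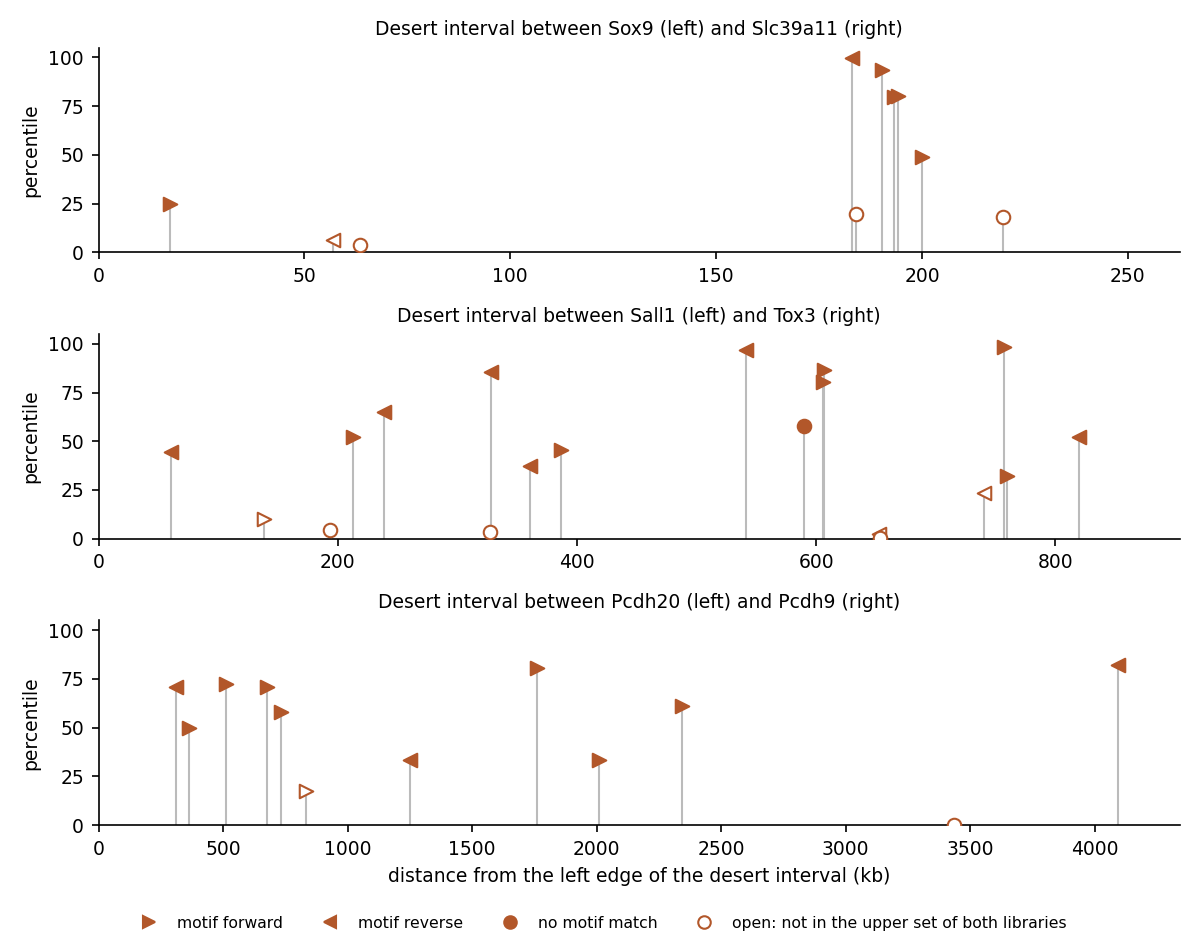
CTCF peaks in 3 desert intervals, by distance from the left edge of the interval (kb) and signal percentile in the optimal list (vertical axis). Triangles point in the motif's direction, circles have no match, and open symbols were not in the upper set of both libraries. Intervals are 263, 904 and 4342 kb long, and the horizontal scale differs between panels.

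The 3 maps show where peaks lay in single intervals, and whether their spacing was uneven beyond random placement was not tested. In Sox9–Slc39a11, 6 of the 10 peaks lay between 183 and 200 kb from the left edge. The highest, at the 99.5th percentile, had a reverse motif, and the next 4 peaks with a match to its right had forward motifs and stood at percentiles of 93.4, 79.6, 80.2 and 48.9. In Sall1–Tox3 the peaks spread over the interval, and the 2 highest, at the 98.6th and 97.1st percentiles, had a forward and a reverse motif. In Pcdh20–Pcdh9, 9 of 12 peaks lay in the first 2009.2 kb, and 8 of the 11 matches were on the forward strand; between 2344 and 4093 kb there was 1 peak, at the 0.195th percentile.

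The 10 highest desert peaks reached the upper end of the whole list. The highest lay between Npvf, a neuropeptide gene, and Nfe2l3, a transcription factor gene, at chr6:50937099-50937500, 282.9 kb from a TSS. It ranked 7th of the optimal list, 24th in replicate 1 and 8th in replicate 2, and its desert held 23 peaks at 60.8 per Mb. The second, in the Caln1–Galnt17 gap, ranked 12th in the optimal list, 18th in replicate 1 and 22nd in replicate 2. The other 8 ranked between 304 and 1033, with ranks of 139 to 2807 in replicate 1 and 324 to 2587 in replicate 2.

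Their deserts included A1bg–Myc, Sox9–Slc39a11, Fbxl7–Ank, Slc7a11–Noct, Sall1–Tox3, Ubash3b–Sorl1 and Icos–Pard3b. Slc7a11 encodes a cystine transporter. The 10 peaks came from 10 different deserts, all had a motif match and none had a soft-masked summit. These traits were common at high signal. In the highest of the 10 signal classes, 97.3% of peaks outside deserts had a match and 5.82% a soft-masked summit. The peaks of Sox9–Slc39a11 and Ubash3b–Sorl1 lay inside the long non-coding genes 2610035D17Rik and 3110039I08Rik.

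The 5 members farthest from a TSS had signal percentiles on both sides of the desert median of 42.3. They lay 2123.6 to 2543.5 kb away, in the deserts Pcdh20–Pcdh9 (2 peaks), Celf4–Pik3c3, Cntnap5b–Cdh20 and Tenm3–Aga, with signal percentiles of 60.9, 33.2, 77.5, 29.4 and 49.1. All 5 had a motif match, against 78.3% of members, and 4 were in both upper sets, against 73.8% of members. The exception was the Cntnap5b–Cdh20 peak, which ranked 41293 in replicate 1 and 132312 in replicate 2.

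Many desert peaks lay in long non-coding genes. Of the members, 454 (14.4%, 13.2% to 15.7%) had their summit inside one, against 8.88% of all peaks and 13.1% of intergenic peaks at 10 to 200 kb, and 9.19% of desert bases were in such genes. Within 1 kb of a long non-coding TSS were 68 members (2.16%), against 3.71% of all peaks and 3.43% of intergenic peaks at 10 to 200 kb. The peaks inside long non-coding genes fell in 263 genes. The most were in 6330411D24Rik, with 10 peaks, 9 of them with a motif match. The genes 2610035D17Rik beside Sox9 and 3110039I08Rik beside Sorl1 each had 7.

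The share of peaks in deserts depended on how far down the lists one went. It was 4.78% in the conservative list and 4.93% in the optimal list, against 8.21% of the whole replicate 1 list, 11.1% of the whole replicate 2 list and 11.2% of the 146939 lower-ranked autosomal peaks of the pooled relaxed list. The density in deserts relative to other sequence was 0.192 in the optimal list and 0.467 in that lower-ranked set. The lower-ranked set was cut by rank and not by the authors' reproducibility threshold, so it may hold some peaks of the optimal list. Apart from these values, the pooled list was used only for the share of matches with a weaker peak.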

How the data were processed

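The authors deposited narrowPeak lists on mm10: 1 for each of the 2 libraries, 1 for both libraries pooled, and an optimal and a conservative list thresholded for reproducibility (IDR), per the notes deposited beside the files. Each peak carries a signal value and a −log10 q-value computed by the authors' peak caller, and a summit offset. For the aligner, the caller and the threshold, nothing is given in the sources used here. No list holds read counts, so the depth is unknown, and signal served to rank peaks inside their own list. The members and gene lists were chosen with earlier results of these data known.

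Summits (interval start plus offset) were set against protein-coding transcripts of GENCODE M21 with Python 3.11.15, numpy 2.4.6 and pandas 2.3.3. A library's peak matched an optimal peak at an overlap of at least 1 bp. The motif matrix was learned from the 5000 highest-signal peaks outside deserts on odd-numbered chromosomes, with soft-masked bases left out, and 4476 of them gave a site; the program that soft-masked the RefSeq GRCm38.p6 sequence is not given in the sources used here. A match needed a score that 1 in 10000 control positions 2 kb away passes, within 100 bp of the summit. The learning step was tested on simulated sequence with planted sites. Named peaks were the 10 highest in both upper sets, the 5 farthest from a TSS and the 5 on each side of 200 kb; named deserts were the 5 with most peaks, the 5 longest, the 3 longest without a peak and the 3 densest of at least 1 Mb; of each flanking-gene list, the 5 genes with most desert peaks were named. Of these, 1 peak and 1 desert are not reported here. All values are descriptions: peaks of 1 group of 2 libraries are not replicates of a condition, so no test and no p-value is given, and Wilson intervals cover counting error alone.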

Additional observations from a re-analysis of the deposited data

How the results depend on the processing

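The spread between the 2 libraries' own values was the yardstick. The share of peaks in deserts was 9.36% at more than 100 kb from a TSS, 1.25% at more than 500 kb and 5.61% with gene 5′ ends as the start sites. Desert density was 8.34 and 3.57 per Mb at those 2 distances, 5.44 in the conservative list and 8.46 without soft-masked sequence. The share in both upper sets was 86.7% in the conservative list and 59.1% when an overlap of at least 50% of both intervals was required. The motif share was 80.6% in the conservative list, 73.7% with a matrix learned from all sequence and 18.3% at the stricter score. Soft-masked summits made up 16.8% in the conservative list, 18.7% beyond 100 kb and 18.1% beyond 500 kb. The median gap was 52.7 kb in the conservative list, 34.1 kb beyond 100 kb, 91.6 kb beyond 500 kb and 44.3 kb with gene 5′ ends. Inward edge motifs made up 51.3% in the conservative list, 51.4% beyond 500 kb and 48.1% with gene 5′ ends. Peaks inside long non-coding genes made up 14.3% in the conservative list, 15.9% beyond 100 kb, 11.985% beyond 500 kb, 14.7% with gene 5′ ends, and 14.7% with antigen receptor segments counted as genes, an alternative chosen after seeing the data.

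With 1 library left out, the share of peaks in deserts ranged from 4.43% to 5.07%, desert density from 5.56 to 6.36 per Mb, the median percentile from 41.4 to 46.4, the share in the other upper set from 73.7% to 89.0%, the motif share from 75.2% to 78.3%, soft-masked summits from 16.6% to 17.2%, the median gap from 46.7 to 50.2 kb and peaks in long non-coding genes from 14.3% to 14.4%. Desert values stayed on the same side of the other peaks' values in these alternatives, with 2 exceptions given in the report: the share in both upper sets without replicate 1, and the motif share at the stricter score. The cause was not tested. The unknown depth limits statements on weak peaks, since an unlisted site is one below the list's threshold. No paired analysis was possible because the 2 libraries form 1 group.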
